A study of Mus musculus with 6 samples.

Results

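Transcripts of the creatine and adenine nucleotide shuttles, 9 of the 54532 genes in the count table, were followed in the left ventricle of HINT2-TG and NTG mice after AB. They were selected by gene name and comprise the creatine kinases Ckm, Ckmt2 and Ckb, the creatine transporter gene Slc6a8, the ADP/ATP carriers Slc25a4 and Slc25a5, and the adenylate kinases Ak1, Ak3 and Ak4. All 9 had enough counts to enter the test, which covered 14774 genes. Each group held 3 libraries, matching the 3 mice per group that the methods give, and all were from hearts after aortic banding (AB), a surgical narrowing of the aorta that loads the left ventricle. TG libraries carry the genotype label HINT2CTG-Myh6Cre, and NTG libraries the label C57BL/6J. According to the methods of the study, male mice were operated at 8 to 10 weeks of age and hearts were taken 4 weeks later, and a CAG-HINT2 transgene was switched on in cardiomyocytes by Myh6-driven Cre after tamoxifen at 5 mg/kg per day for 7 days. Neither Cre nor tamoxifen is named for the NTG hearts of this experiment, so the transgene, Cre and tamoxifen cannot be told apart in this comparison. No sham-operated heart was analysed here.

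In heart muscle, ATP made in mitochondria reaches the myofibrils largely through relays. ADP/ATP carriers exchange the nucleotides across the inner mitochondrial membrane, mitochondrial creatine kinase on its outer face passes the phosphate to creatine, and cytosolic creatine kinase returns it to ADP at the sites of use. Adenylate kinases interconvert ATP, ADP and AMP, and so spread the same phosphate by another route. The creatine and phosphocreatine pool of the heart is known to shrink in hypertrophy and failure, and the brain-type kinase gene Ckb is known as an isoform of the fetal heart.

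Counts assigned to genes totalled 14863568 to 17581220 in NTG and 14944465 to 17235802 in TG, so depth was similar in both groups. The share of counts from the mitochondrial genome was 13.4% to 19.2% in NTG and 16% to 21.5% in TG. Levels below are counts scaled to library size as CPM after TMM normalization. The groups were tested with the quasi-likelihood method of edgeR, and p-values were adjusted by Benjamini-Hochberg over these 14774 genes. For the targeted gene, Hint2, raw counts were 793 to 859 in TG, 545 in NTG 2 and 559 in NTG 3. With 12 Hint2 counts, the library labelled NTG 1 stood apart from the other NTG libraries. Whether it is correctly labelled was not established, and since it enters every NTG mean, fold changes of the members are also given without it where it moves them. Over all genes, its counts differed less from those of TG 1, TG 2 and TG 3 (chi-square per gene 14.5, 11.9 and 18.4) than from those of NTG 2 and NTG 3 (45.6 and 21.7), while its Hint2 count was below that of every TG library. This was not particular to NTG 1. TG 2 also differed less from NTG 1 and NTG 3 (11.9 and 18.6) than from TG 1 and TG 3 (21.2 and 23.7). The log2 fold change of Hint2 was 1.33 (SE 0.86, adjusted p = 0.434, edgeR), or 0.77 without NTG 1 (adjusted p = 0.0212, edgeR). Defining markers of skeletal muscle, which also uses these kinases, were at or near 0, with 0 counts of Myh4, 1 of Myh1 and 2 of Myh2 over all 6 libraries. Markers of cardiomyocytes were abundant, and their 10 genes summed to 23750 to 40330 CPM in NTG and 38920 to 47270 CPM in TG.

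Compared per kilobase of gene length, Slc25a4 stood highest and Ak4 lowest in every library. Mean levels over the 6 libraries were 1429 CPM per kilobase for Slc25a4, 1001 for Ckmt2, 305 for Ckm, 166 for Slc25a5, 148 for Ak1, 50.4 for Slc6a8, 33.6 for Ckb, 32.3 for Ak3 and 8.48 for Ak4. Neighbours in this order kept their places in all 6 libraries with 2 exceptions. Slc25a5 lay above Ak1 in 5 of 6 libraries, and Ckb above Ak3 in 4 of 6, so neither pair was separated beyond the spread between libraries at these lengths. The muscle forms made up most creatine kinase and carrier transcripts. Ckmt2 and Ckm supplied 75.6% ± 0.507 and 21.1% ± 0.561 (SD, n = 3) of creatine kinase transcripts per length in NTG, and Ckb 3.25% ± 0.868. Table lengths count every annotated exon base, and with the length of a principal transcript instead, Ckm lay above Slc25a5 in 5 of 6 libraries and Ckb above Ak3 in 6 of 6, and Slc6a8 lay above Ckb in 5 of 6 with the longest principal transcripts. The length of Ckb then falls from 2895 to 1472 bases, so its level and share per length depend on this choice.

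**Figure D1:**
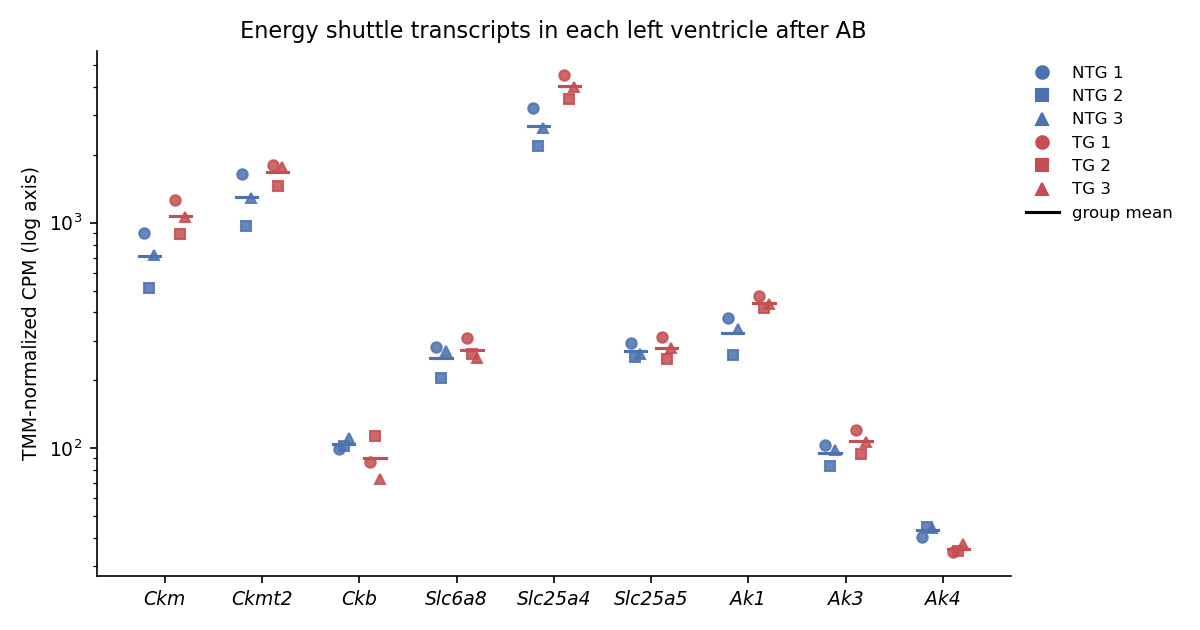
CPM of the 9 transcripts (vertical log axis) in each of the 3 NTG (blue) and 3 TG (red) libraries, with a bar at each group mean. Slc25a4 and Ak1 are higher in every TG library than in every NTG library, Ak4 is lower in every TG library, and the other 6 overlap.

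Of the ADP/ATP carriers, the heart and muscle form Slc25a4 had the higher level in every TG library, while the groups overlapped for the widely expressed form Slc25a5. Slc25a4 (ENSMUSG00000031633) lies at chr8:46206797-46211284 (GRCm38, minus strand). It measured 3241, 2196 and 2646 CPM in NTG 1, NTG 2 and NTG 3, and 4543, 3524 and 4020 CPM in TG 1, TG 2 and TG 3. No TG value reached down to the NTG range. Group means were 2694 ± 524 CPM in NTG and 4029 ± 510 CPM in TG (SD, n = 3), a fold of 1.5 with a 95% interval of 1.09 to 2.04. The log2 fold change was 0.58 (SE 0.20, adjusted p = 0.213, edgeR), which did not pass the test, and 0.73 without NTG 1. DESeq2, the tool of the study, gave 0.59 and called the gene higher (adjusted p = 0.0342). This call was lost when NTG 2, NTG 3, TG 1 or TG 3 was left out (adjusted p = 0.219, 0.231, 0.338 and 0.228, DESeq2). The call required a log2 fold change beyond 0.5 besides an adjusted p below 0.05, and DESeq2 called 1.54% of the genes tested as higher and 2.4% as lower by it, or 1.73% and 2.49% on the adjusted p alone. Slc25a5 (ENSMUSG00000016319), at chrX:36795651-36798807 (plus strand), measured 293, 253 and 261 CPM in the NTG libraries and 310, 247 and 278 CPM in the TG libraries. These ranges overlapped almost entirely. Its log2 fold change was 0.051 (95% interval −0.23 to 0.33, adjusted p = 0.845, edgeR), and it was 0.114 without NTG 1 and −0.035 with scaling by library size alone. The processed copy Slc25a5-ps held 4 counts against 26714 of Slc25a5 over all libraries. In bulk tissue, fewer cells of a type and less RNA per cell cannot be told apart.

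Among the creatine kinases, the muscle forms Ckm and Ckmt2 had higher mean levels in TG, and Ckb did not. Ckm (ENSMUSG00000030399), at chr7:19404776-19422841 (plus strand), encodes the cytosolic enzyme of striated muscle. It measured 903, 512 and 721 CPM in NTG 1, NTG 2 and NTG 3, and 1255, 887 and 1056 CPM in TG 1, TG 2 and TG 3. The groups overlapped because the library labelled NTG 1 lay above TG 2. Group means were 712 ± 196 and 1066 ± 184 CPM (SD, n = 3), with a log2 fold change of 0.58 (SE 0.23, adjusted p = 0.232, edgeR). Without NTG 1 it was 0.79 (adjusted p = 0.0634, edgeR). Ckmt2 (ENSMUSG00000021622), at chr13:91853387-91876885 (minus strand), encodes the mitochondrial enzyme of striated muscle, the donor end of the relay. Its CPM were 1637, 963 and 1293 in the NTG libraries and 1803, 1455 and 1775 in the TG libraries. Here too NTG 1 lay above TG 2. The log2 fold change of Ckmt2 was 0.37 (SE 0.21, adjusted p = 0.368, edgeR), with 0.57 when NTG 1 was left out and 0.20 when NTG 2 was.

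Ckb and the transporter gene had overlapping groups. Ckb (ENSMUSG00000001270), at chr12:111669361-111672338 (minus strand), encodes the cytosolic enzyme of brain and smooth muscle. It measured 98.7, 102 and 111 CPM in NTG 1, NTG 2 and NTG 3, and 86.4, 113 and 72.9 CPM in TG 1, TG 2 and TG 3. TG 2 was the highest of all 6 libraries and TG 3 the lowest, so TG spanned the whole NTG range. Its log2 fold change was −0.19 (95% interval −0.55 to 0.16, adjusted p = 0.515, edgeR), and it ran from −0.38 to −0.060 when single libraries were left out of the edgeR fit. Slc6a8 (ENSMUSG00000019558), at chrX:73673150-73682502 (plus strand), brings creatine into the cell. Its CPM were 282, 204 and 269 in the NTG libraries and 308, 262 and 251 in the TG libraries, with NTG 2 below the rest. For Slc6a8 the log2 fold change was 0.12 (95% interval −0.23 to 0.47, adjusted p = 0.688, edgeR), with 0.209 without NTG 1 and −0.011 without NTG 2.

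RefSeq start sites were available for 8 of the 9 genes, in 14 windows on GRCm38.p6. The 250 bases before each start were searched on both strands for AAGGTCA, a half-site of oestrogen-related and other nuclear receptors, for the NRF1 core (GCGCA and GCGC with any 1 base between them) and for the MEF2 motif of muscle genes. TATAA, starting 20 to 40 bases before the start on the gene's strand, was added after the sequences had been seen. Among 32851 windows of all genes, 4.08% held AAGGTCA, 3.74% the NRF1 core, 2.92% MEF2 and 3.52% TATAA. The 150 bases before the starts of Ckmt2 and Ckb are shown because these kinases of one family lie far apart in level, and a window of Ckmt2 without any match stands beside one of Ckb with overlapping MEF2 and TATAA matches, marked by capitals. They are chr13:91876886-91877035 and chr12:111672339-111672488, both read on the minus strand, 5′ to 3′.
Ckmt2: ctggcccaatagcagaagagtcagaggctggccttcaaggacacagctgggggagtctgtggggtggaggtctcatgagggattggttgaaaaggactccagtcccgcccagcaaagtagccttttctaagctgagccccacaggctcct
Ckb: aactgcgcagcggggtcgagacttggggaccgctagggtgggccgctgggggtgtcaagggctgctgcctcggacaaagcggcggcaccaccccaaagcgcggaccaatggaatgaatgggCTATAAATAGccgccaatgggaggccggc
The Ckb match starts 29 bases before the start and reads as MEF2 on either strand. Ckm also held a TATAA, 29 bases before its start, and no window of Slc25a4, Slc25a5, Ak3 or Ak4 held any of these letters.

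Among the adenylate kinases, the cytosolic form Ak1 had the higher level in each TG library, the matrix form Ak3 had overlapping groups, and Ak4, another mitochondrial member, was lower in each TG library. Ak1 (ENSMUSG00000026817) lies at chr2:32621758-32635058 (plus strand). It measured 377, 259 and 336 CPM in NTG 1, NTG 2 and NTG 3, and 471, 418 and 437 CPM in TG 1, TG 2 and TG 3. The lowest TG library lay above the highest NTG library, NTG 1. Means were 324 ± 59.9 and 442 ± 27.0 CPM (SD, n = 3), a log2 fold change of 0.45 (SE 0.15, adjusted p = 0.215 with edgeR and 0.0888 with DESeq2), and 0.57 without NTG 1. Ak3 (ENSMUSG00000024782), at chr19:29020833-29047961 (minus strand), encodes the GTP:AMP phosphotransferase of the matrix. Its CPM were 103, 83.1 and 98.4 in the NTG libraries and 120, 93.9 and 107 in the TG libraries, which overlapped. The log2 fold change was 0.17 (95% interval −0.12 to 0.46, adjusted p = 0.470, edgeR), with 0.079 without TG 1, 0.085 without NTG 2 and 0.26 without TG 2. Exons of Ak3 share 430 bases with Cdc37l1 on the other strand, and since the strand setting of the counting is not given, reads there cannot be assigned with certainty.

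Ak4 (ENSMUSG00000028527), at chr4:101419277-101466995 (plus strand), had the lowest level of the 9. It measured 40.5, 44.8 and 44.0 CPM in NTG 1, NTG 2 and NTG 3, against 34.6, 34.9 and 37.5 CPM in TG 1, TG 2 and TG 3. The groups did not overlap, and the spread within each was small. Means were 43.1 ± 2.3 and 35.7 ± 1.6 CPM (SD, n = 3), a fold of 0.828 with a 95% interval of 0.718 to 0.955. The log2 fold change was −0.27 (SE 0.090, adjusted p = 0.211 with edgeR and 0.202 with DESeq2), and stayed between −0.36 and −0.24 over the 22 other fits tried, at −0.32 without NTG 1. For Ak1, 1 of 4 start sites had a match. Its 150 bases before the start, chr2:32628240-32628389 on the plus strand of GRCm38.p6, are shown with the AAGGTCA in capitals, as the only match to that motif among the 14 windows.
Ak1: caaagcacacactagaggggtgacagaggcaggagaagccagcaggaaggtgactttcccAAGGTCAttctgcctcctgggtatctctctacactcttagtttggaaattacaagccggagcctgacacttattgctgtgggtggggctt

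With edgeR, 0 of the 9 transcripts were called by the same thresholds, as were 0% of the genes tested. Fitted values were higher in TG for 7 of 9, against 48.7% of the genes tested. At an unadjusted p under 0.05, Ckm, Slc25a4 and Ak1 were higher in TG and Ak4 was lower, 3 and 1 of 9, while 8.83% of the genes that entered the test were higher and 9.76% lower. For Slc25a4 and Ak1, 2 of 9, every TG library lay above every NTG library, as for 11.2% of all genes, and for Ak4, 1 of 9, every TG library lay below, as for 12.3%. These counts are small, and the share of members below NTG is near that of all genes. The median log2 fold change of the 9 was 0.17, against −0.0081 for all genes tested, and it was 0.079 without TG 1, 0.085 without NTG 2 and 0.26 without TG 2. DESeq2 called 1 member, Slc25a4, and 0 without NTG 2, NTG 3, TG 1 or TG 3. When NTG 1 was left out it called 4 members higher, namely Ckm, Ckmt2, Slc25a4 and Ak1, and then also 5.92% of the genes tested as higher and 5.79% as lower. Without NTG 1, edgeR called 0 members, against 2.67% of the genes tested as higher and 2.85% as lower, and the adjusted p of Slc25a4, Ak1 and Ckm was then 0.0627, 0.0627 and 0.0634 (edgeR). Without TG 1, 0 members were higher or lower at an unadjusted p under 0.05 (edgeR), against 4.98% and 5.62% of the genes tested. Without NTG 3, 1 was higher and 0 lower, against 5.15% and 7.07%.

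**Figure D2:**
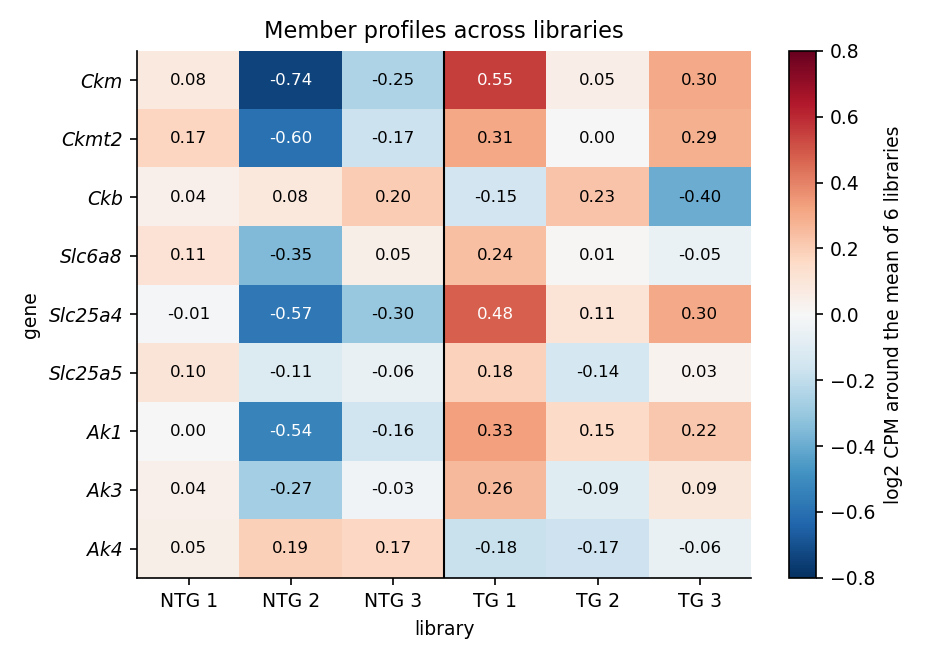
Log2 CPM of the 9 transcripts (rows) in the 6 libraries (columns), centred on the mean of the 6, with red above and blue below it. NTG 2 is lowest of all libraries for 6 of the 9, TG 1 is highest for 7, and NTG 1 lies above TG 2 for 6.

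Libraries differed within groups along the same line. NTG 2 was the lowest of all 6 libraries for 6 transcripts, and TG 1 the highest for 7. The library labelled NTG 1 was the highest NTG library for 7 transcripts and lay above TG 2 for 6. Ckb and Ak4 departed from this, with NTG 1 lowest of the NTG libraries for both.

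Cell type markers moved with these levels. All 10 cardiomyocyte markers had a higher fitted level in TG, 2 of them at an unadjusted p under 0.05, with a median log2 fold change of 0.45. Their log2 fold changes ran from 0.10 to 0.61, so these markers did not shift by a common amount. The sum of these markers was lowest in NTG 2 at 23750 CPM and highest in TG 1 at 47270 CPM, and NTG 1 at 40330 CPM lay above TG 2 at 38920 CPM, the order seen for Ckm and Ckmt2. Fibroblast markers went the other way, with 6 of 8 lower in TG at an unadjusted p under 0.05 and sums of 4709 to 10850 CPM in NTG and 2317 to 4017 CPM in TG. Leukocyte markers summed to 183 to 364 CPM in NTG and 133 to 189 CPM in TG, with 3 of 6 tested lower at that p. Red blood cell genes summed to 1310 to 2245 CPM in NTG and 762 to 908 CPM in TG, all 5 lower at that p. The wall stress genes Nppa, Nppb, Acta1 and Myh7 summed to 8248 to 12250 CPM in NTG and 4896 to 10800 CPM in TG, 1 of 4 lower at that p. Endothelial sums were 1481 to 1706 CPM in NTG and 1582 to 1736 CPM in TG, with 2 of 6 higher. For smooth muscle and pericytes they were 1129 to 1467 and 1244 to 1504 CPM, with 3 of 6 higher. Atrial or conduction myocyte markers summed to 74.6, 9.03 and 9.49 CPM in NTG 1, NTG 2 and NTG 3. Their sums were 11.8, 35.4 and 176 CPM in TG 1, TG 2 and TG 3, with 0 of 4 tested past that p. The part of these markers in the members' differences was not tested. Adipocyte, skeletal muscle and glial and neuronal markers summed to at most 29.79, 2.81 and 17.95 CPM in any library.

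Set against the summed cardiomyocyte markers of the same library, every difference of mean log2 CPM shifted down by the same amount, 0.468, the difference of the marker sums. The sign of each thus followed from its value before scaling. Those unscaled differences, such as 0.606 for Ckm and 0.591 for Slc25a4, are not the edgeR values given above. After scaling, the median of the 9 was −0.296. On this scale Ckm, whose groups overlapped in CPM, was higher in each TG library, by 0.14 ± 0.074 (log2 difference ± SE). Slc25a4, whose groups were separate in CPM, was higher by 0.12 ± 0.081 with overlapping groups. The difference was −0.0064 ± 0.082 for Ak1 and −0.071 ± 0.026 for Ckmt2. Relative to these markers, Slc6a8, Slc25a5, Ak3 and Ak4 were lower in each TG library, with differences of −0.34 ± 0.13, −0.42 ± 0.17, −0.30 ± 0.14 and −0.74 ± 0.28, as was Ckmt2. Ckb differed by −0.68 ± 0.35 with overlapping groups. None of these passed an exact permutation test (two-sided, 3 libraries against 3), whose smallest possible p of 0.1 was reached for 6 of the 9. This scale was chosen after the values had been seen.

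**Figure D3:**
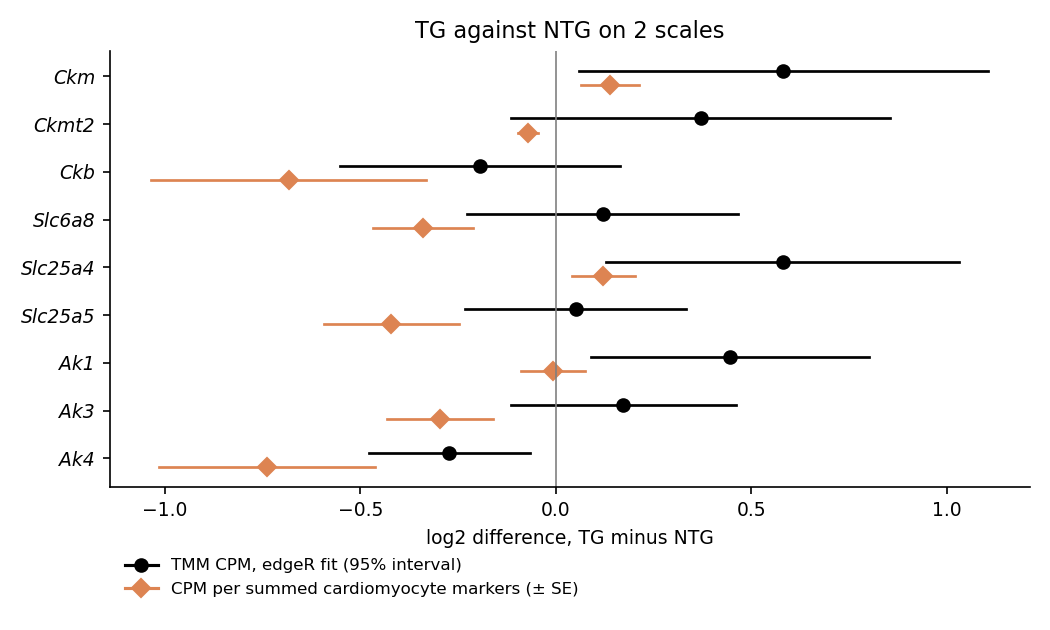
Log2 difference, TG minus NTG, of each transcript on the TMM scale (black, with the 95% interval of edgeR's fit) and per summed cardiomyocyte markers (orange, ± SE of 3 against 3 libraries). On the marker scale Ak1 lies at 0, Ckm and Slc25a4 lie slightly above it and the other 6 lie below.

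Ratios between 2 members within a library do not depend on the scaling between libraries, and 6 were compared. Slc25a5 over Slc25a4, per length, was 0.129, 0.164 and 0.141 in NTG 1, NTG 2 and NTG 3, and 0.0976, 0.1 and 0.0988 in TG 1, TG 2 and TG 3. The TG libraries lay close together and below each NTG library, so that Slc25a4 made up 91% ± 0.115 of carrier transcripts in TG and 87.4% ± 1.37 in NTG (SD, n = 3). The log2 difference of the ratio was −0.54 ± 0.10 (SE), from −0.62 to −0.45 when single libraries were left out. Ak4 over Ak3 was 0.264, 0.362 and 0.3 in the NTG libraries and 0.193, 0.25 and 0.236 in the TG libraries, a log2 difference of −0.44 ± 0.17. Ak1 over Ak3 was 4.41, 3.76 and 4.11 in NTG and 4.72, 5.35 and 4.93 in TG, a log2 difference of 0.29 ± 0.086. Thus both ratios separated the groups, in opposite directions. Ckmt2 over Ckm was 3.55, 3.69 and 3.52 in NTG and 2.82, 3.22 and 3.30 in TG, a log2 difference of −0.21 ± 0.074. When single libraries were left out, this difference ran from −0.25 to −0.14, the latter without TG 1. Ckb over Ckm was 0.11, 0.2 and 0.155 in NTG and 0.0693, 0.128 and 0.0695 in TG, where TG 2 lay above NTG 1, and its log2 difference was −0.82 ± 0.39. Ckmt2 over Slc25a4 differed by −0.19 ± 0.077, also with overlap. Each of the 4 ratios whose groups did not overlap had p = 0.1 and the other 2 had p = 0.2 (exact permutation test, two-sided), or 0.15 and 0.2 after adjustment over the 6. A design of 3 against 3 cannot go below 0.1.

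**Figure D4:**
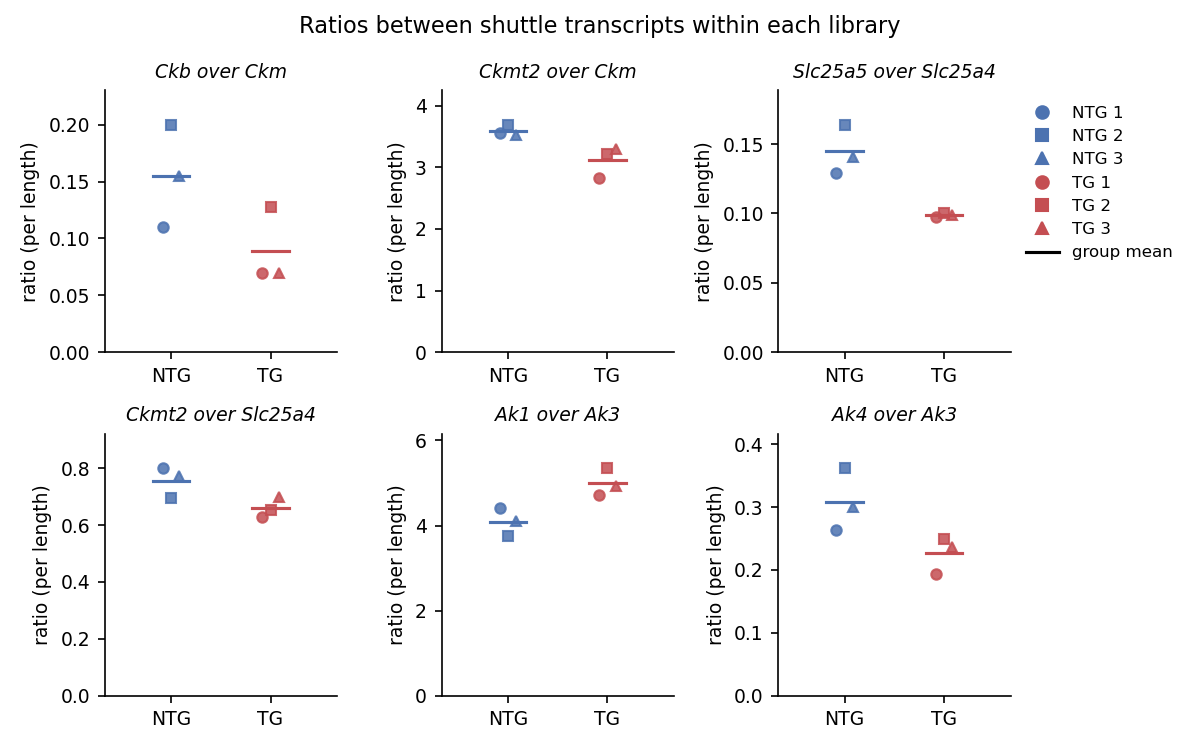
Ratios of counts per length between 2 members in each library (vertical axes from 0), with a bar at the group mean. Slc25a5 over Slc25a4 lies between 0.0976 and 0.1 in TG and between 0.129 and 0.164 in NTG.

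Genes that work beside the members were read from 6 lists. Of 20 genes for ATP synthase, its inhibitor, the phosphate carrier and the outer membrane pores, all were tested and 19 had a higher fitted level in TG, 6 at an unadjusted p under 0.05 and 0 lower, with a median log2 fold change of 0.33. The cardiomyocyte markers, all higher and with a median of 0.45, moved with this list, whose summed CPM was also lowest in NTG 2 (11160) and highest in TG 1 (18460), with NTG 1 (15340) above TG 2 (14870). Their part in it was not tested. Atp5g3 and Atp5g1, which encode the same c subunit of the rotor ring, and Atp5j, a stalk subunit, had the smallest p, with log2 fold changes of 0.57, 0.51 and 0.49 (adjusted p = 0.204, 0.204 and 0.212, edgeR). DESeq2 called Atp5e, Atp5g1 and Atp5g3 higher, but 0 genes of the 6 lists when NTG 2, TG 1 or TG 3 was left out, and Atp5e alone without NTG 3. Atp5e, for the epsilon subunit, had the largest log2 fold change of the list at 1.02 (adjusted p = 0.226, edgeR). It was 83.4 CPM in NTG 1 against 216 and 236 in NTG 2 and NTG 3, and without NTG 1 its log2 fold change was 0.68, below the 0.73 of Atp5g3. The phosphate carrier gene Slc25a3, which supplies the synthase together with the ADP/ATP carriers, measured 1018 ± 160 CPM in NTG and 1293 ± 141 CPM in TG (SD, n = 3), a log2 fold change of 0.34. The only lower value belonged to Atpif1, the ATP synthase inhibitor, at 61.7 ± 3.6 and 54.7 ± 4.38 CPM (SD, n = 3), a log2 fold change of −0.17 with groups that did not overlap. Vdac1, Vdac2 and Vdac3, the pores of the outer membrane, had log2 fold changes of 0.28, 0.026 and 0.24.

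Medians of the remaining lists were nearer to that of all genes tested in the full fit. They were 0.218 for the other creatine genes and 0.186 for the other adenylate kinases. The creatine median was 0.0956 without NTG 1. Without NTG 2 it was 0.242, against 0.234 for the list with ATP synthase. Of the other creatine genes, 0 of 4 passed an unadjusted p under 0.05, and the synthesis genes Gatm and Gamt had 8.83 and 4.31 CPM in NTG and 9.80 and 5.57 CPM in TG. The ubiquitous mitochondrial creatine kinase gene Ckmt1 had 87 counts in all, a log2 fold change of −0.70 and a SE of 0.57. Among other adenylate kinases, 2 of 6 were tested, and Ak6 had a log2 fold change of 0.083 (adjusted p = 0.804, edgeR). Nucleoside diphosphate kinases had 0 of 5 tested past that p and a median of 0.023, which ranged from −0.063 without TG 2 to 0.12 without TG 1, with Nme1, Nme6 and Nme4 at −0.30, 0.38 and 0.23. Of the other nucleotide carriers, 8 of 10 were tested, 1 was higher and 1 lower at that p, with a median of −0.029, or 0.046 without NTG 1. The ATP-Mg/phosphate carrier gene Slc25a24 was the lower one, with a log2 fold change of −0.32, and the coenzyme A carrier gene Slc25a42 had 0.56 with overlapping groups. For AMP breakdown and the purine nucleotide cycle, 13 of 14 were tested, 3 were higher and 0 lower at that p, and the median was −0.099, or −0.035 without TG 2. The 3 were the nucleotidase genes Nt5c2 and Nt5c1a, at 0.31 and 0.75, and the adenylosuccinate lyase gene Adsl, at 0.27, and each had separate groups. Ampd3 and Adssl1, for AMP deaminase and adenylosuccinate synthase, had −0.099 and −0.15. With edgeR 0 genes of the 6 lists were called, and DESeq2 called 3. Without NTG 1, edgeR called 5, among them Ak5 (−2.95, from 49 counts in all 6 libraries), Atp5e (0.68), Atp5g3 (0.73) and Atp5j (0.65).

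**Figure D5:**
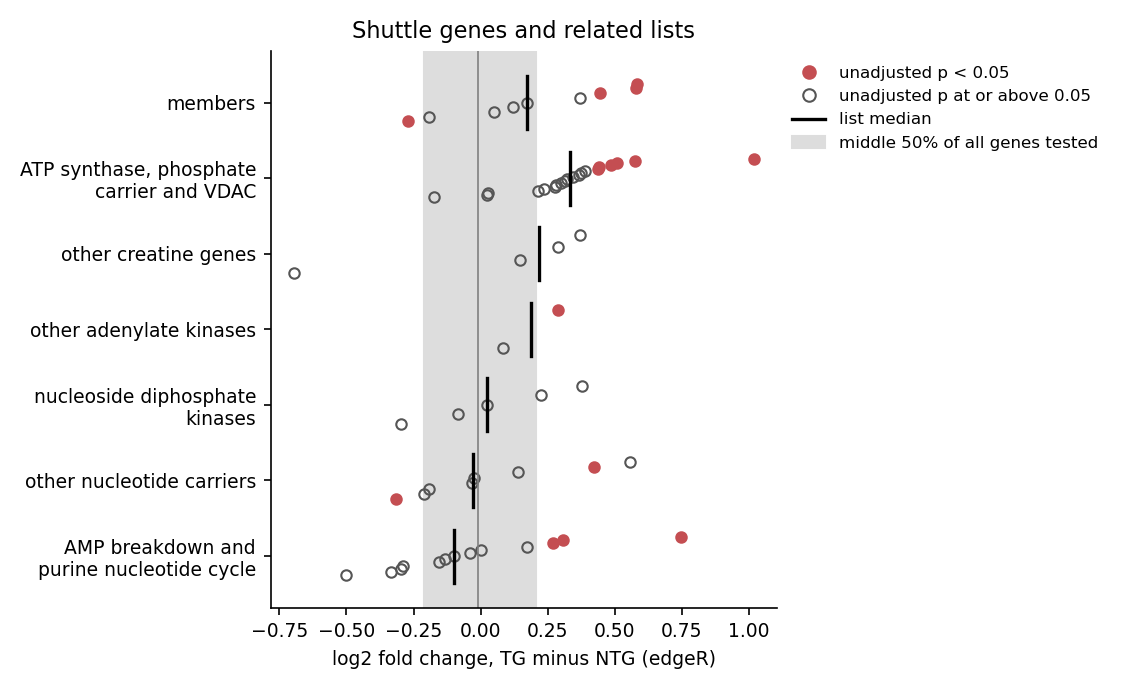
Log2 fold changes (edgeR, TG minus NTG) of the 9 members and of the tested genes of the 6 lists, with filled points at an unadjusted p under 0.05, a bar at each list's median and a grey band for the middle 50% of all genes tested (−0.21 to 0.21). The list with ATP synthase lies mostly to the right of the band, and the lists of nucleotide carriers and AMP breakdown are centred within it.

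The genes most like each member were named by the root mean square difference of log2 CPM profiles centred on their mean over the 6 libraries, a description without a test. Slc25a4 was most like Khdrbs3 and Atp5g3, at 0.028 and 0.029. Ckmt2 was most like Hadhb, of fatty acid oxidation, and the mitochondrial ribosomal gene Mrpl34, at 0.023 and 0.025. For Ckm these were Rap1gap2 and Acot2, at 0.035 and 0.050. Ak1 was closest to Pgam2, the muscle phosphoglycerate mutase gene of glycolysis, at 0.016, and then to Kcng2 at 0.026. Slc6a8 had Nedd1 and Mrps23, Slc25a5 had Tatdn1 and Ube2n, and Ak3 had Ptdss2 and Ankrd40, at 0.020 to 0.027. Ckb had Fam117a and Scarf2 at 0.046 and 0.048, and Ak4 had Mcfd2 and Anapc4 at 0.028 for both. Within the 9, Slc25a5 and Ak3 were each other's nearest member, at 0.0845, as were Ckm and Slc25a4, at 0.09. Ckb and Ak4 were also paired in this way but at 0.22, where Ak4 ranked 3178 among the genes nearest to Ckb, and Ckb 5496 among those nearest to Ak4.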

How the data were processed

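Left ventricular RNA of 3 TG and 3 NTG samples was sequenced as poly-A selected libraries. The authors cleaned the reads, mapped them, and counted reads per gene with featureCounts, and the values they deposited are these raw counts, without normalization or pooling. The submitters' processing notes name HISAT2, DESeq2 and GRCh38, a human build, while gene identifiers and positions in the table are those of mouse GRCm38 (53499 of 54532 genes have the same position in GENCODE M21). Strand setting and treatment of reads with several placements are not given in the sources used here. Columns were matched to libraries by label, and 0 were left unmatched. For a list gene whose name stood in more than 1 row, the row with most counts was used.

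The test was edgeR 4.0.16 under R 4.3.3 (TMM, filterByExpr, robust quasi-likelihood), run on the whole table. A call required a log2 fold change beyond 0.5 in either direction besides an adjusted p below 0.05. DESeq2 1.42.0 and limma 3.58.1 (voom) were alternatives. DESeq2 without each of the 6 libraries, the scale per cardiomyocyte markers and both principal transcript lengths were added after the values were seen. The edgeR, DESeq2 and voom fits were tested on simulated data, in which the planted changes were larger than those of the members. The simulation therefore does not show how these fits perform at the size of the members' differences. The methods give 3 mice per group, and p-values measure the spread between these libraries. No 2 libraries differed by less than sampling noise (chi-square per gene 10.5 to 83.5). The labels name no batch. Profiles used log2 CPM with a prior count of 2. Intervals of fold changes are 95% intervals from the fit.

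The members and gene lists were chosen with earlier results of these data known, and the lists were set by hand from known gene function. Named were all members, Hint2, from each list the 3 genes of smallest unadjusted p, other list genes with their values, and the 2 genes most like each member. Ak5 and the other genes called without NTG 1 were named after their values were seen. Values of 2 list genes are not reported here.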

Additional observations from a re-analysis of the deposited data

How the results depend on the processing

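The median log2 fold change of the 9 members was 0.0793 to 0.269 over the other fits, with 0.0877 for scaling by library size alone, and −0.296 per summed cardiomyocyte markers. The edgeR fits called 0 members. DESeq2 called 1 member (Slc25a4) and 3 genes of the pathway lists (Atp5e, Atp5g1 and Atp5g3), where edgeR called 0. Genes of the marker lists called numbered 0 in the edgeR test reported, 4 without a filter on low counts, 10 with DESeq2, 9 with the likelihood-ratio test and 3 with the replicate block.

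When single libraries were left out of edgeR, members higher at an unadjusted p under 0.05 ranged from 0 (without TG 1) to 4 (without NTG 1, where 13.7% of the genes tested were higher), and members lower from 0 (without NTG 3 or TG 1) to 2 (without TG 2, where 10.2% were lower). Pathway genes called ranged from 0 to 5 and marker genes from 0 to 9, both highest without NTG 1. The log2 fold change of Hint2 ranged from 0.773 to 1.79 (2.31 with limma voom and all libraries), that of Slc6a8 from −0.0114 (without NTG 2) to 0.209, and that of Slc25a5 from −0.0357 (without TG 1) to 0.129. With DESeq2, leaving out NTG 1 gave 4 members, 13 pathway genes and 27 marker genes called and a Hint2 value of 0.78, and leaving out TG 2 gave 1, 5 and 14. The share of all genes called was counted only for the full edgeR and DESeq2 fits and for those without NTG 1. Counts of called genes from the other fits therefore have no background beside them. Without NTG 2, NTG 3, TG 1 and TG 3, DESeq2 called 0 members, so that its call of Slc25a4 was lost, and 5, 7, 4 and 3 marker genes, with 1 pathway gene without NTG 3. Members lower at that p were then 0 without NTG 2, NTG 3 or TG 1. The values of Slc6a8 without NTG 2 and of Slc25a5 without TG 1 were −0.0086 and −0.0312 with DESeq2.

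Scaling by library size alone gave −0.0353 for Slc25a5, and moved the median of all genes from −0.00811 to −0.0926. Scaling per summed cardiomyocyte markers takes 0.468 from the mean log2 CPM difference of every member. With it the sign turned for Ckmt2 (−0.0706), Slc6a8 (−0.339), Slc25a5 (−0.421), Ak1 (−0.00642) and Ak3 (−0.296). The cause of the other changes was not tested. Libraries with the same number did not deviate together (correlations 0.0807, 0.173 and −0.252), so the numbers were not taken as pairs. With the replicate block, 0 members were called, and 4 were higher and 1 lower at an unadjusted p under 0.05, against 11.2% and 10.7% of the genes tested. With 3 libraries per group, the 95% intervals of the members' folds are wide, and a difference that did not pass is not shown to be absent.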
